A study of Mus musculus with 44 samples.

Results

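Insulin signalling genes and genes of the FoxO transcription factors, 10 in all, were followed in mouse kidney over a day of night-restricted feeding, in wild-type mice and in mice labelled as Bmal knockout (Bmal1, gene symbol Arntl, is a core gene of the circadian clock). The 10 genes are the insulin receptor gene Insr, the adaptor genes Irs1 and Irs2, the phosphoinositide 3-kinase regulatory subunit gene Pik3r1, the factors Foxo1 and Foxo3, and Txnip, Sesn1, Klf15 and Igfbp1, which are known to respond to fasting or to FoxO in other tissues. They were chosen by name, with earlier results of these data known, and all 10 had a value. All 10 passed the filter of a mean of at least 1 TPM (a unit of transcript abundance scaled for transcript length and library size). Irs1 passed it only through the knockout libraries. The filter was passed by 12874 of the 24733 genes with any value. The data are 24 libraries of polyadenylated whole-kidney RNA from 129SV mice aged 8 to 12 weeks. The mice were wild type (WT) or carried the Bmal knockout (KO), and all were fed at night only. Kidneys were taken at zeitgeber time (ZT, hours after lights on by convention) 0, 4, 8, 12, 16 and 20. Each of the 12 groups of genotype and time has 2 libraries, named A and B. The labels give neither the hours at which food was offered, nor the knockout allele, nor whether libraries A and B came from separate animals, so the p-values measure the spread between these libraries, which may in part be technical. TPM keeps no sequencing depth, so the depth behind each value is unknown.

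When an animal eats, insulin binds its receptor, the receptor phosphorylates the IRS adaptors, and these recruit phosphoinositide 3-kinase through its regulatory subunit. The kinase Akt that is activated in this way phosphorylates FoxO factors and keeps them out of the nucleus. During fasting insulin is low, FoxO factors return to the nucleus, and they are known to raise genes such as Igfbp1 and Irs2 in liver. Arntl protein forms a pair with Clock and binds E-boxes, which drives the daily rhythm of many genes.

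Promoter sequences of the genes whose levels are described most closely are shown first, because they hold the short motifs through which FoxO, insulin and clock factors are known to act. They come from RefSeq (build GRCm38.p6) and run from 250 bases before the start site to 50 bases after it. Of the 10 genes 9 matched an entry, giving 11 promoters, and Insr had none. Capitals mark the motifs searched on both strands. These were the FoxO element GTAAACA, the insulin response element CAAAACA, the E-box CACGTG and, set with the Txnip promoter in view, a pair of E-box-like elements (2 copies of CACGNG with 5 bases between them) like the one known as the carbohydrate response element.
Igfbp1, chr11:7197537-7197836, plus strand: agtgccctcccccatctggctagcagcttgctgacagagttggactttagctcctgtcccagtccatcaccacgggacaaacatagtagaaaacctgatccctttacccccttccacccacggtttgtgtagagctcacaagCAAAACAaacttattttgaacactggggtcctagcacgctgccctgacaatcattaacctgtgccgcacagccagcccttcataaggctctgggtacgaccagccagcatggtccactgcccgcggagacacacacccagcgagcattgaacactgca
Txnip, chr3:96557707-96558006, plus strand: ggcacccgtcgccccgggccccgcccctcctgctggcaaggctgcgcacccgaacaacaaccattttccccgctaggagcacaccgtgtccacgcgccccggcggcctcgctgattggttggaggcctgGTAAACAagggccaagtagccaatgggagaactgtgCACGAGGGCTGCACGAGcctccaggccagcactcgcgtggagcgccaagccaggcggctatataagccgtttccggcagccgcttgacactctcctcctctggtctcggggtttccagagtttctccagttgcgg
Irs2, chr8:11008880-11009179, minus strand: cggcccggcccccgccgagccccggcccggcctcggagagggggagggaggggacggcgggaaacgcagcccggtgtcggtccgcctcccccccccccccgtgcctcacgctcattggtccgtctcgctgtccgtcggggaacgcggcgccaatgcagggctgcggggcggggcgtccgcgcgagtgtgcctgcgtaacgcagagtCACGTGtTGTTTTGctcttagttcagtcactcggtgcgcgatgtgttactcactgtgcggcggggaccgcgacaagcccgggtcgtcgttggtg
Irs1, chr1:82291390-82291689, minus strand: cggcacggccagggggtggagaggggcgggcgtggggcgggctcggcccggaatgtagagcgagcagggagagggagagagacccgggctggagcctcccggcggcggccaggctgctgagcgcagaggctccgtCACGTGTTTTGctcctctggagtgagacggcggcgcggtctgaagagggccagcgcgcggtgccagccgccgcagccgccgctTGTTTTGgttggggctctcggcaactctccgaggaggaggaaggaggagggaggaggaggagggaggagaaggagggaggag
Klf15, chr6:90462326-90462625, plus strand: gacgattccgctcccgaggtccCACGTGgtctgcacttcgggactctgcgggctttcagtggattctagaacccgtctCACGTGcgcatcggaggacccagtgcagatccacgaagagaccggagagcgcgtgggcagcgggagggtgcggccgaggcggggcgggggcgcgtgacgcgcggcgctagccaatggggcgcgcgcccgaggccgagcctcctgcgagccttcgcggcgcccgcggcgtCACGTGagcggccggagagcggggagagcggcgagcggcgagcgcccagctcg
The insulin response element was found in Igfbp1 (108 bases before the start site), in Irs2 (37 bases before) and at 2 places in Irs1 (111 and 32 bases before). It occurs in 6.28% of the 32851 mouse promoters of the same length. E-boxes were found in Irs2 (44 bases before the start site), in Irs1 (115 bases before) and at 3 places in Klf15 (228, 172 and 3 bases before), against 7.15% of all promoters with at least one. In Irs1 the E-box and the first insulin response element share 2 bases, and in Irs2 they lie 1 base apart. The FoxO element was found in Txnip (121 bases before the start site) and in 1 of the 2 Sesn1 promoters (22 bases after it), against 3.65% of all promoters. The paired pattern in Txnip (85 bases before) occurs in 16 of all promoters, or 0.049%. None of the 4 motifs was found in the promoters of Foxo1, Foxo3 or Pik3r1. A match is a description of the letters and does not show that a factor binds.

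The labels were checked first. Arntl swung between 0.295 and 12.9 TPM over the 12 WT libraries, and lay between 4.19 and 6.28 TPM at all times in the 12 KO libraries. The transcript is therefore still measured in KO, without its daily swing, and its level cannot check the labels at ZT4, where WT had 6.16 and 4.71 TPM. Library A of KO at ZT4 stood apart from the other 11 KO libraries. It had 1.04 TPM of the clock gene Cry1 and 23.8 TPM of Nr1d1, against 13.6 and 2.75 TPM in library B of the same group and 1.20 and 22.0 TPM in WT library A at ZT4. On the first principal component of all tested genes (26.1% of the variance) it lay at -8.31. This is just above the WT libraries (-44.8 to -9.42) and far below the other KO libraries (18.4 to 51.0). In these values the library was nearer to WT than to the other KO libraries, and why was not tested. It is called the library labelled KO ZT4 A below, and it was kept in all fits unless stated. Without it no call of the 10 genes over all times, for rhythm or for night against day was gained or lost, and at single times that of Irs2 at ZT20 was gained. Kidney markers were high in all libraries (3 proximal tubule genes summed to 1694.5 to 2345 TPM). Adrenal cortex markers summed to at most 0.221 TPM and skeletal muscle markers to at most 1.64 TPM. Red cell markers summed to 451 to 1110 TPM in WT and 637 to 1515 TPM in KO. Endothelium sums were 57.3 to 82.5 and 54.5 to 94.0 TPM, and immune sums 4.81 to 10.1 and 4.81 to 7.61 TPM. The part of these cells in the results was not tested. In whole-kidney RNA, fewer cells of a type and less RNA per cell cannot be told apart.

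**Figure D1:**
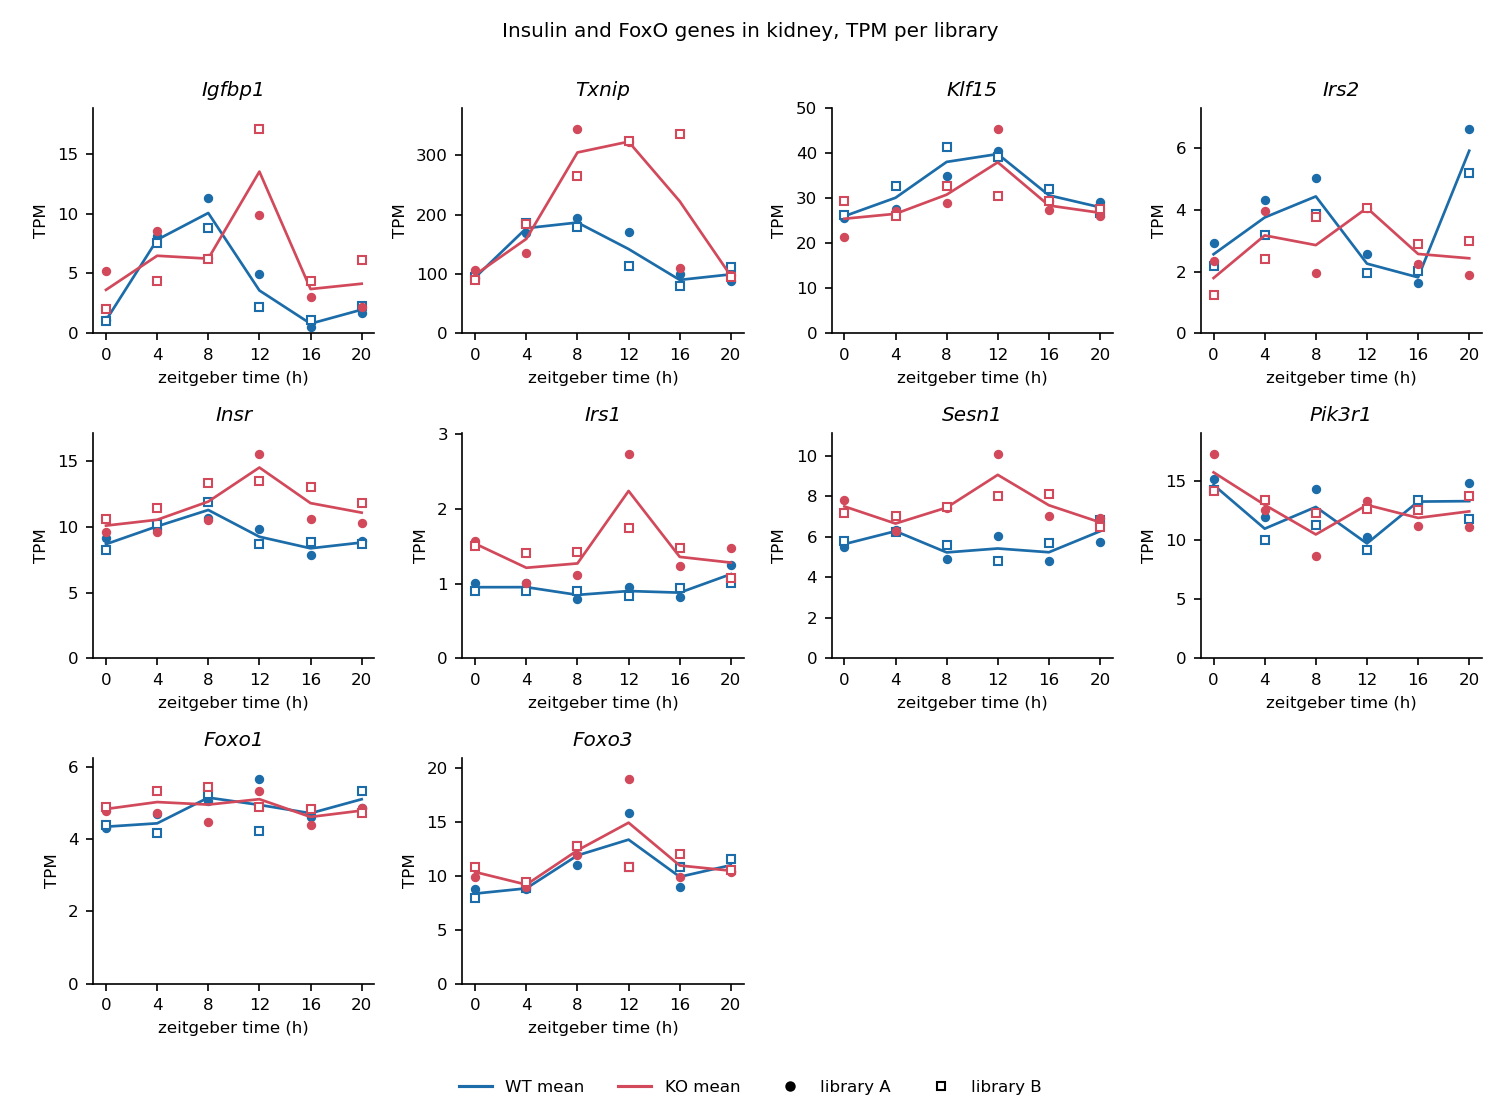
TPM (vertical axis, from 0) of the 10 genes against zeitgeber time in hours, one panel per gene. Filled circles are libraries A, open squares libraries B and lines the means of 2 libraries, WT in blue and KO in red. Igfbp1 and Txnip had their highest WT means at ZT8 (10.0 and 187 TPM) and their highest KO means at ZT12 (13.5 and 323 TPM).

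Igfbp1 and Txnip were the genes that differed between night and day. In WT, 2 of the 10 genes changed between ZT4 and ZT8 (day) and ZT16 and ZT20 (night), Igfbp1 and Txnip, and both were higher by day. Over all tested genes 5.63% were called in this test, and 3.62% were called as higher by day. In KO none of the 10 was called by limma, against 0.785% of all genes, and 1, Txnip, had an unadjusted p under 0.05. All 4 day libraries lay above all 4 night libraries for 3 of the 10 genes in WT (Insr, Txnip and Igfbp1, against 8.89% of all genes) and for none in KO (4.11%), and the reverse held for none in WT (7.88%) or KO (1.84%). Among all genes called in WT, 35.7% were higher at night, a share that was 55.2% after median-of-ratios scaling and 23.5% after scaling without mitochondrial genes. In KO these shares were 37.6%, 73% and 69.0%. The test of the difference between genotypes called none of the 12874 genes with limma (1099 had an unadjusted p under 0.05, Insr and Igfbp1 among them), so no gene was shown to have a larger night and day difference in one genotype than in the other.

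Igfbp1 (GRCm38 chromosome 11, 7197782 to 7202546, plus strand) encodes a secreted protein that binds insulin-like growth factors. In WT it was listed at 1.12 (library A) and 1.07 TPM (library B) at ZT0, 8.12 and 7.51 TPM at ZT4, 11.3 and 8.80 TPM at ZT8, 4.99 and 2.17 TPM at ZT12, 0.505 and 1.12 TPM at ZT16, and 1.68 and 2.28 TPM at ZT20. All 4 WT day libraries lay above all 4 WT night libraries. The WT mean was 8.93 ± 1.66 TPM by day and 1.39 ± 0.76 TPM at night (SD, n = 4 libraries each), a 6.40-fold ratio. Night minus day was -2.75 on the log2(TPM + 0.1) scale (SE 0.39, limma adjusted p = 0.00184), and the adjusted p stayed between 0.00144 and 0.0148 when each of the 24 libraries was left out in turn. In KO the gene had 5.21 and 2.05 TPM at ZT0, 8.58 and 4.38 TPM at ZT4, 6.28 and 6.19 TPM at ZT8, 9.92 and 17.1 TPM at ZT12, 3.04 and 4.36 TPM at ZT16, and 2.19 and 6.10 TPM at ZT20. The KO day and night libraries overlapped, with means of 6.36 ± 1.72 and 3.92 ± 1.70 TPM (SD, n = 4 each). Night minus day in KO was -0.74 (SE 0.39, limma adjusted p = 0.372), and -0.50 (adjusted p = 0.627) without the library labelled KO ZT4 A. The KO contrast minus the WT contrast was 2.00 (SE 0.55), with an unadjusted limma p of 0.00265 and an adjusted p of 0.337. Without the library labelled KO ZT4 A it was 2.24 (adjusted p = 0.299).

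The time of the highest level of Igfbp1 also differed in value between genotypes. A 24-hour cosine fit gave a peak-to-trough range of 3.25 on the log2 scale in WT (SE 0.61, limma adjusted p = 0.0043). The WT peak was at 6.83 h (SE 0.72 h). In KO the fitted range was 1.57 (SE 0.61, adjusted p = 0.257) with a peak at 9.78 h (SE 1.49 h). The difference in rhythm missed the threshold (unadjusted p = 0.0392, limma adjusted p = 0.343). At single times, KO exceeded WT by 1.95 at ZT12 (SE 0.55, limma adjusted p = 0.0144) and by 2.13 at ZT16 (SE 0.55, adjusted p = 0.0164). At ZT4 and ZT8 the differences were -0.34 and -0.67, neither of them called, and at ZT8 both KO libraries lay below both WT libraries. The average over times given below joins differences of both signs. The ZT12 call was lost without WT library B of that time (1.37, adjusted p = 0.137) or KO library B (1.56, adjusted p = 0.0822), and the ZT16 call without WT library A (1.62, adjusted p = 0.157) or KO library B (1.87, adjusted p = 0.0816). Averaged over times Igfbp1 was 1.87-fold higher in KO (log2 difference 0.91, SE 0.32, limma adjusted p = 0.0194), and 0.92 higher without the library labelled KO ZT4 A (adjusted p = 0.0233). That call was lost under median-of-ratios scaling (0.76, adjusted p = 0.0566) and without time in the model (0.91, adjusted p = 0.0993).

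Igfbp1 is known as a gene of liver, so the 3 hepatocyte markers are given beside it. None of the 3 was at 0. Their sum was 11.7 to 15.97 TPM in the WT libraries and 14.9 (the library labelled KO ZT4 A) to 70.0 TPM in the KO libraries. Apoa2 made up most of this difference, with 7.36 to 10.7 TPM in WT, 25.0 to 68.9 TPM in 11 KO libraries and 10.5 TPM in the library labelled KO ZT4 A. Albumin (Alb) went the other way, with 1.87 to 4.03 TPM in WT, 0.164 to 0.586 TPM in 11 KO libraries and 2.37 TPM in the library labelled KO ZT4 A. The third marker, Serpina1c, spanned 1.91 to 3.84 TPM in WT and 0.659 to 7.30 TPM in KO, with medians of 2.40 and 3.91 TPM. The part of the 3 markers in the Igfbp1 result was not tested.

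Txnip (chromosome 3, 96557957 to 96561883, plus strand) encodes thioredoxin-interacting protein, which inhibits thioredoxin and limits glucose uptake, and which is known to be raised by glucose and by FoxO. In WT it was listed at 93.6 (library A) and 95.1 TPM (library B) at ZT0, 169 and 186 TPM at ZT4, 194 and 179 TPM at ZT8, 171 and 113 TPM at ZT12, 101 and 79.6 TPM at ZT16, and 87.8 and 111 TPM at ZT20. The 4 WT day libraries all lay above the 4 WT night libraries, and of the ZT12 libraries A was at the day level and B near the night level. Means were 182 ± 10.8 TPM by day and 94.8 ± 13.9 TPM at night (SD, n = 4 each), a 1.92-fold ratio. The log2 difference, night minus day, was -0.95 (SE 0.26, limma adjusted p = 0.0456). This call sat at the threshold. It was lost when any of the 12 WT libraries or any KO library of ZT0, ZT8, ZT12 or ZT20 was left out (adjusted p 0.0504 to 0.146), while the difference itself lay between -1.035 and -0.865. The call was also lost with the letters A and B as a replicate block (adjusted p = 0.054, and 0.0597 with a block within each genotype) and without a filter on low values (adjusted p = 0.0699).

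In KO Txnip had 107 and 90.3 TPM at ZT0, 135 and 184 TPM at ZT4, 345 and 265 TPM at ZT8, 322 and 324 TPM at ZT12, 110 and 336 TPM at ZT16, and 98.0 and 95.6 TPM at ZT20. The 2 KO libraries of ZT16 lay far apart, one at the WT level and the other at the level of KO at ZT12. Night minus day in KO was -0.68 (SE 0.26, limma adjusted p = 0.211), -0.79 (adjusted p = 0.229) without the library labelled KO ZT4 A and -1.08 (adjusted p = 0.00303) without KO library B of ZT16. Txnip was the member called as rhythmic in both genotypes. The peak-to-trough range was 1.15 in WT (SE 0.26, limma adjusted p = 0.0165) and 1.95 in KO (SE 0.26, adjusted p = 0.00133). Peaks were at 7.18 h in WT (SE 0.88 h) and 10.4 h in KO (SE 0.52 h). Without the library labelled KO ZT4 A the KO range was 1.94 (adjusted p = 0.00266). The WT call was lost without WT library A of ZT8 (adjusted p = 0.0517). When the 6 times were tested as separate levels, neither call was made (adjusted p 0.201 in WT and 0.0876 in KO). The genotypes' rhythms differed with an unadjusted p of 0.00323 and an adjusted p of 0.132, and with an adjusted p of 0.0248 without KO library A of ZT16.

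At single times Txnip was higher in KO at ZT12 by 1.21 on the log2 scale (SE 0.36, limma adjusted p = 0.0191) and at ZT16 by 1.10 (SE 0.36, adjusted p = 0.0455). The ZT12 call was lost without WT library B (0.92, adjusted p = 0.147), KO library A (1.22, adjusted p = 0.0882) or KO library B of that time (1.21, adjusted p = 0.055), and under median-of-ratios scaling (0.97, adjusted p = 0.0681). The ZT16 call rested on KO library B, without which the difference was 0.29 (adjusted p = 0.43), and was lost in 19 of the 24 omissions of 1 library. It was also lost with the replicate block (adjusted p = 0.0532). At ZT0, ZT4, ZT8 and ZT20 the differences were 0.06, -0.17, 0.70 and -0.03, none of them called, and without the library labelled KO ZT4 A that at ZT4 was 0.05 (adjusted p = 0.944). The ZT8 difference was called without either KO library of ZT16 (adjusted p 0.0307 at the lowest).

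**Figure D2:**
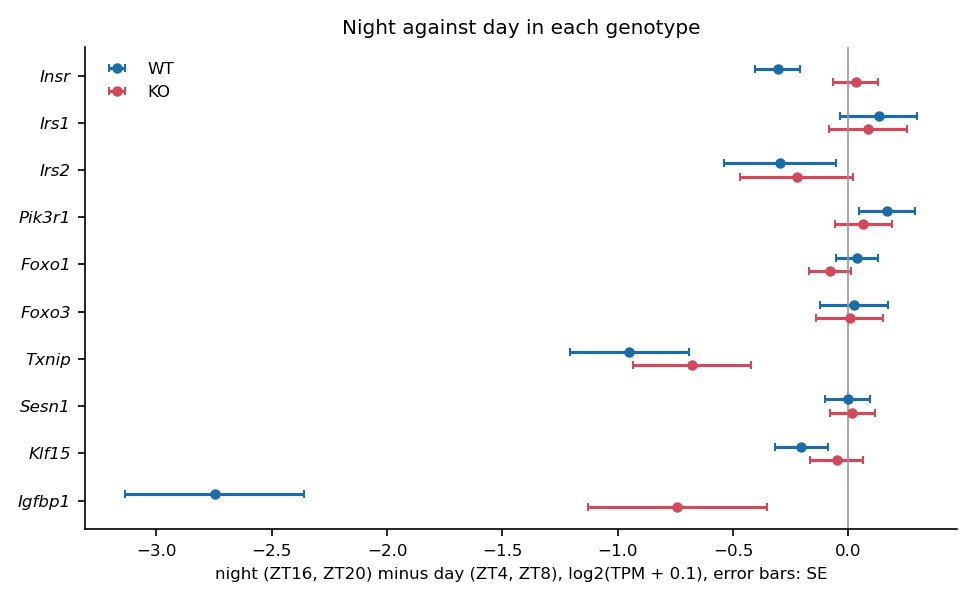
Night (ZT16 and ZT20) minus day (ZT4 and ZT8) in log2(TPM + 0.1) for the 10 genes (horizontal axis, negative is higher by day), WT in blue and KO in red, with bars of 1 SE from the limma fit. Igfbp1 lies at -2.75 in WT and -0.74 in KO, Txnip at -0.95 and -0.68, and the other 8 genes lie between -0.31 and 0.17.

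Klf15 (chromosome 6, 90462576 to 90475238, plus strand), a Krüppel-like factor known for its role in amino acid and glucose metabolism during fasting, had a daily rhythm in WT. Its WT libraries gave 25.7 and 26.4 TPM at ZT0, 27.5 and 32.7 TPM at ZT4, 34.9 and 41.3 TPM at ZT8, 40.6 and 39.1 TPM at ZT12, 29.3 and 32.0 TPM at ZT16, and 29.2 and 26.8 TPM at ZT20. Both ZT12 libraries lay above those of every other WT time except ZT8. The fitted range was 0.61 on the log2 scale (SE 0.13, limma adjusted p = 0.0083) with a peak at 10.5 h (SE 0.80 h). The WT rhythm was not called with time as a 6-level factor (adjusted p = 0.116). In KO the levels were 21.5 and 29.4 TPM at ZT0, 27.1 and 26.0 TPM at ZT4, 29.0 and 32.7 TPM at ZT8, 45.5 and 30.5 TPM at ZT12, 27.4 and 29.5 TPM at ZT16, and 26.0 and 27.5 TPM at ZT20. The highest of these, KO library A of ZT12, also had the highest sum of adipocyte markers (10.5 TPM). KO ZT0 B and WT ZT16 B, with sums of 9.84 and 9.75 TPM, had 29.4 and 32.0 TPM of Klf15. The part of adipocytes in the Klf15 level was not tested. The KO range was 0.48 (SE 0.13, adjusted p = 0.074) with a peak at 11.5 h (SE 1.02 h). For a rhythm differing from WT the adjusted p was 0.813. The KO rhythm passed the threshold without KO library B of ZT0 (adjusted p = 0.0429).

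In all, 3 of the 10 genes (Igfbp1, Txnip and Klf15) were called as rhythmic in WT, against 13.7% of all genes, and 1 of the 10 (Txnip) in KO, against 3.64%. None of the 10 was called for a difference in rhythm by limma, against 0.629% of all genes, while Insr, Txnip, Sesn1 and Igfbp1 had an unadjusted p under 0.05.

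The second set of differences was in level between the genotypes. Over all times, 5 of the 10 genes were called, Insr, Irs1, Txnip, Sesn1 and Igfbp1, and all 5 were higher in KO. This share is close to that of all tested genes, of which 60.9% were called and 50.9% were called as higher in KO. The count therefore says nothing particular about these genes, and it includes Irs1, which the filter kept only through KO. The median of all genes was itself 0.15 higher in KO on the log2 scale and 0.00 after median-of-ratios scaling, and the share of called genes that were higher in KO went from 83.6% to 48.7% with that scaling (72.6% after scaling without mitochondrial genes). Differences given without a scaling still include that shift. At single times the median of all genes was 0.09 (ZT20) to 0.24 (ZT12) higher in KO, and the single-time differences include it too. After median-of-ratios scaling Insr (0.15, limma adjusted p = 0.0456), Irs1 (0.42, adjusted p = 0.00177) and Sesn1 (0.24, adjusted p = 0.0036) were still called. Txnip (0.33, adjusted p = 0.138) and Igfbp1 (0.76, adjusted p = 0.0566) were not, and Klf15 was called as lower in KO (-0.28, adjusted p = 0.000545, against -0.13 and 0.0671 without the scaling). Mitochondrial genes held 38.0% to 42.5% of the TPM in WT and 32.3% to 40.3% in KO (39.4% at the highest without the library labelled KO ZT4 A). The sum of 2 podocyte markers was 17.6 to 30.8 TPM in WT and 30.6 to 42.6 TPM in KO, and that of 2 collecting duct markers 116 to 204 and 154 to 387 TPM. The lowest collecting duct sum in KO was that of the library labelled KO ZT4 A. The distal convoluted tubule marker Slc12a3 was at 149 to 216 TPM in WT and 157 to 297 TPM in KO (225 to 297 TPM without the library labelled KO ZT4 A). The 2 markers of the thick ascending limb went opposite ways, with a summed median of 1486 TPM in WT and 1318 TPM in KO. Umod was at 919.98 to 1469.5 TPM in WT and 816 to 1201 TPM in KO (816 to 1007.6 TPM without the library labelled KO ZT4 A). Slc12a1 was at 207 to 267 TPM in WT and 226 to 540 TPM in KO (320 to 540 TPM without the library labelled KO ZT4 A). The part of these cell types in the differences was not tested. The Txnip call was also lost without WT library B of ZT12 or ZT16 or KO library A or B of ZT12 (adjusted p 0.0522 to 0.0565), after scaling without mitochondrial genes (0.41, adjusted p = 0.0605) and without time in the model (0.48, adjusted p = 0.123). Without the library labelled KO ZT4 A it was 0.54 (adjusted p = 0.014).

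Insr (chromosome 8, 3122061 to 3279617, minus strand), the receptor, had 9.16 (library A) and 8.22 TPM (library B) at ZT0 in WT, 9.87 and 10.2 TPM at ZT4, 10.6 and 11.9 TPM at ZT8, 9.81 and 8.69 TPM at ZT12, 7.86 and 8.88 TPM at ZT16, and 8.95 and 8.67 TPM at ZT20. In KO it had 9.58 and 10.6 TPM, 9.63 and 11.5 TPM, 10.5 and 13.3 TPM, 15.6 and 13.5 TPM, 10.6 and 13.0 TPM, and 10.3 and 11.8 TPM at the same times. The genotypes were apart at ZT0, ZT12, ZT16 and ZT20 and overlapped at ZT4 and ZT8. At ZT4 the overlap came from the library labelled KO ZT4 A (9.63 TPM), while KO library B (11.5 TPM) lay above both WT libraries. Over all times the level was 1.23-fold higher in KO (log2 difference 0.30, SE 0.07, limma adjusted p = 0.000924), and 0.33 higher on the log2 scale without the library labelled KO ZT4 A (adjusted p = 0.00031). The single-time differences called were 0.64 at ZT12 (SE 0.14, adjusted p = 0.00314) and 0.49 at ZT16 (SE 0.14, adjusted p = 0.0234). The ZT16 call was lost without WT library A (0.40, adjusted p = 0.179) or KO library B of that time (0.34, adjusted p = 0.162) and under median-of-ratios scaling (0.31, adjusted p = 0.0996).

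Within WT all 4 day libraries of Insr lay above all 4 night libraries, with means of 10.7 ± 0.898 and 8.59 ± 0.502 TPM (SD, n = 4 each). Night minus day was -0.31 in WT (SE 0.10, limma adjusted p = 0.0835) and 0.03 in KO (SE 0.10, adjusted p = 0.922), and neither was called. With each genotype fitted alone the WT difference passed the threshold (adjusted p = 0.027). The difference between genotypes was 0.34 (SE 0.14), with an unadjusted p of 0.0275 and an adjusted p of 0.536. The fitted peak was at 6.94 h in WT (range 0.37, limma adjusted p = 0.0756) and at 12.3 h in KO (range 0.43, adjusted p = 0.0662). The SEs of these peaks were 1.17 h and 0.99 h. Without KO library A of ZT16 both rhythms passed the threshold (adjusted p 0.0497 in WT and 0.0285 in KO), as they did under median-of-ratios scaling (0.0426 and 0.0404). That in KO also passed without library A of ZT8 (adjusted p = 0.0375).

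Irs1 (chromosome 1, 82233101 to 82291416, minus strand), the first of the adaptors, was the lowest of the 10 genes. Its mean was 0.944 TPM in WT and 1.48 TPM in KO, so it passed the filter of 1 TPM only through KO. The filter thus favoured the direction in which Irs1 was called, and its genotype p-values serve as description only. In WT its libraries lay between 0.797 and 1.25 TPM with no rhythm called (limma adjusted p = 0.704). In KO it had 1.57 and 1.50 TPM at ZT0, 1.01 and 1.42 TPM at ZT4, 1.11 and 1.43 TPM at ZT8, 2.73 and 1.74 TPM at ZT12, 1.23 and 1.48 TPM at ZT16, and 1.48 and 1.08 TPM at ZT20. KO and WT libraries were apart at ZT0, ZT8, ZT12 and ZT16. At ZT4 KO library B (1.42 TPM) lay above both WT libraries, and the library labelled KO ZT4 A (1.01 TPM) did not. Irs1 was 1.48-fold higher in KO over all times (log2 difference 0.56, SE 0.11, limma adjusted p = 0.000273) and 0.61 higher without the library labelled KO ZT4 A (adjusted p = 0.000108). At ZT12 the difference was 1.19 (SE 0.24, adjusted p = 0.00202). The highest library, KO ZT12 A, also had the highest sum of 4 adipocyte markers (10.5 TPM, against 0.231 TPM in KO ZT12 B). Sums of 9.84 TPM in KO ZT0 B and 9.75 TPM in WT ZT16 B, the highest of WT, went with 1.50 and 0.937 TPM of Irs1. The part of adipocytes in the Irs1 level was not tested.

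Irs2 (chromosome 8, 10984681 to 11008458, minus strand), the second adaptor and a known FoxO target in liver, had its highest WT mean at ZT20. The WT libraries gave 2.93 and 2.20 TPM at ZT0, 4.32 and 3.19 TPM at ZT4, 5.02 and 3.85 TPM at ZT8, 2.56 and 1.96 TPM at ZT12, 1.62 and 2.01 TPM at ZT16, and 6.63 and 5.20 TPM at ZT20. Both ZT20 libraries stood above all other WT libraries, and those of ZT16, 4 hours earlier, were among the lowest, so the night mean of 3.87 ± 2.44 TPM (SD, n = 4) joins very unlike values. In KO the gene had 2.34 and 1.25 TPM at ZT0, 3.95 and 2.40 TPM at ZT4, 1.96 and 3.75 TPM at ZT8, 4.06 and 4.06 TPM at ZT12, 2.26 and 2.89 TPM at ZT16, and 1.89 and 2.98 TPM at ZT20. Both KO libraries lay below both WT libraries at ZT8 and ZT20 and above them at ZT12 and ZT16. The KO minus WT difference was -1.27 at ZT20 (SE 0.34, limma adjusted p = 0.0536) and 0.83 at ZT12 (SE 0.34, adjusted p = 0.0677), and neither passed the threshold. The ZT20 difference was called without KO library A or B of ZT0, ZT4 or ZT8 (adjusted p 0.0308 to 0.0439) and that at ZT12 without KO library A or B of ZT8 (0.0487 and 0.0489). Over all times it was -0.24 (SE 0.20, adjusted p = 0.313). A single cosine wave did not describe the WT pattern (adjusted p = 0.502), whereas the test of any difference among the 6 times called it (adjusted p = 0.0458), and the same test of a genotype difference in the time course did not (adjusted p = 0.284).

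Sesn1 (chromosome 10, 41809935 to 41908424, plus strand) encodes sestrin 1, an inhibitor of mTORC1 signalling and a known FoxO target. The WT libraries lay between 4.80 and 6.82 TPM and the KO libraries between 6.30 and 10.1 TPM. At ZT8 the WT libraries had 4.89 and 5.58 TPM against 7.41 and 7.49 TPM in KO, at ZT12 6.06 and 4.80 TPM against 10.1 and 8.02 TPM, and at ZT16 4.81 and 5.68 TPM against 7.02 and 8.11 TPM. The genotypes were apart at ZT0, ZT8, ZT12 and ZT16 and overlapped at ZT4 and ZT20. At ZT4 the library labelled KO ZT4 A had 6.30 TPM and KO library B 7.02 TPM, against 6.32 and 6.25 TPM in WT. Sesn1 was 1.31-fold higher in KO over all times (log2 difference 0.39, SE 0.07, limma adjusted p = 0.000136), and 0.42 higher on the log2 scale without the library labelled KO ZT4 A (adjusted p = 5.6e-05). Its differences at ZT8 (0.50, adjusted p = 0.0263), ZT12 (0.73, adjusted p = 0.00158) and ZT16 (0.52, adjusted p = 0.0175) were called. The ZT8 call was lost without any one of the 4 libraries of that time (0.41 to 0.60, adjusted p 0.0643 to 0.178), and that at ZT16 without WT library A (0.40, adjusted p = 0.166) or KO library B (0.42, adjusted p = 0.106) of that time and under median-of-ratios scaling (0.35, adjusted p = 0.0616). Without mitochondrial genes the ZT8 difference was 0.36 (adjusted p = 0.11). Night minus day was near 0 in both genotypes (0.00 in WT and 0.02 in KO, SE 0.10 each).

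**Figure D3:**
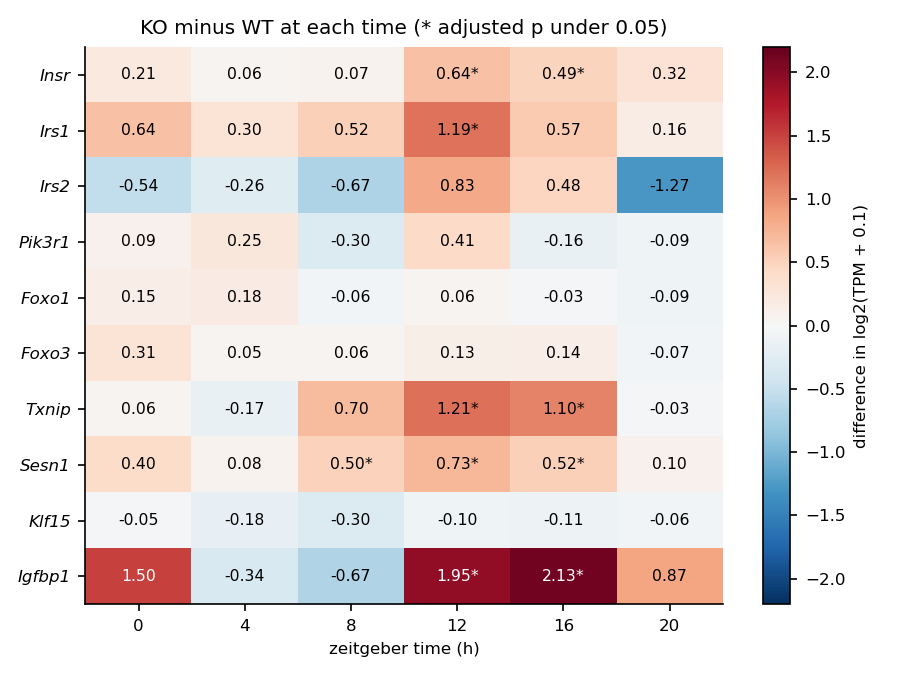
KO minus WT in log2(TPM + 0.1) for the 10 genes (rows) at each zeitgeber time (columns), red where KO was higher and blue where it was lower, with an asterisk at a limma adjusted p under 0.05. The 10 asterisks lie at ZT8 (Sesn1), ZT12 (Insr, Irs1, Txnip, Sesn1 and Igfbp1) and ZT16 (Insr, Txnip, Sesn1 and Igfbp1).

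The genotype differences were called at ZT8, ZT12 and ZT16. At ZT12, 5 of the 10 genes were called, all higher in KO, against 38.2% of all genes called and 31.9% called as higher in KO. Irs1, kept by the filter only through KO, is among these 5. At ZT16 the count was 4 of 10 against 21.5% (17% as higher in KO), and at ZT8 it was 1 of 10 against 14.6% (11.1% as higher). None of the 10 was called at ZT0 (13.4% of all genes), at ZT4 (0%, with 1637 genes at an unadjusted p under 0.05) or at ZT20 (3.72%). Both KO libraries lay above both WT libraries for 7 of the 10 genes at ZT12 (57.3% of all genes), for 6 at ZT0 (51.8%) and ZT16 (49.9%), for 3 at ZT4 (37.2%) and ZT8 (43.4%), and for 1, Insr, at ZT20 (40.7%). Both lay below for none at ZT0 (13.4%) and ZT12 (13%), for Klf15 at ZT4 (5.72%), for Irs2, Klf15 and Igfbp1 at ZT8 (17.1%), for Pik3r1 at ZT16 (14.6%), and for Irs2 and Foxo1 at ZT20 (15.2%). The library labelled KO ZT4 A enters the ZT4 comparison. Without it 1489 of 12872 genes were called at ZT4, and none of the 10 was among them.

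Pik3r1, Foxo1 and Foxo3, the regulatory subunit and the factors themselves, were not called in any of these tests. Pik3r1 (chromosome 13, 101680563 to 101768217, minus strand) lay between 9.20 and 15.1 TPM in WT and between 8.63 and 17.3 TPM in KO, with a genotype difference of 0.03 (SE 0.08, limma adjusted p = 0.74), which turned to -0.12 under median-of-ratios scaling and -0.03 without mitochondrial genes. Its highest means were at ZT0 in both genotypes (14.7 and 15.7 TPM). Foxo1 (chromosome 3, 52268336 to 52353221, plus strand) lay between 4.18 and 5.67 TPM in WT and between 4.40 and 5.43 TPM in KO, with a genotype difference of 0.03 (SE 0.05, adjusted p = 0.582). Under median-of-ratios scaling Foxo1 was called as lower in KO (-0.115, adjusted p = 0.0497), and without mitochondrial genes the difference was -0.03. Foxo3 (chromosome 10, 42181841 to 42276755, minus strand) lay between 7.99 and 15.9 TPM in WT and between 8.94 and 19.0 TPM in KO, with its highest mean at ZT12 in both (13.4 and 15.0 TPM). Its genotype difference was 0.10 (SE 0.08, adjusted p = 0.252), and -0.05 under median-of-ratios scaling. Those ZT12 means joined unlike libraries, 15.9 and 10.9 TPM in WT and 19.0 and 10.9 TPM in KO. The higher KO library was also that with the most adipocyte marker RNA (10.5 TPM). KO ZT0 B and WT ZT16 B, with 9.84 and 9.75 TPM of these markers, each had 10.8 TPM of Foxo3. The part of adipocytes in the Foxo3 level was not tested. The Foxo3 rhythm had an adjusted p of 0.122 in WT and 0.237 in KO, and that in WT passed the threshold without KO library A of ZT12 (adjusted p = 0.0482).

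The members' annotated transcripts were compared next, since an RNA can be carried by several forms. Reads of forms that share sequence are divided by estimate, so these values are less certain than the gene sums. Irs1, Irs2, Foxo1 and Igfbp1 each had a single transcript, and Insr had 99.97% of its TPM in WT in one. Of Foxo3, transcript Foxo3-203 held 85.5% of the TPM in WT and 82.8% in KO, and the shorter Foxo3-202 held 14.1% and 16.8%. Foxo3-202 was higher in KO by 0.34 on the log2 scale (1.47 ± 0.256 TPM in WT and 1.88 ± 0.27 TPM in KO, SD, n = 12 libraries each, limma adjusted p = 0.00295), and Foxo3-203 by 0.06 (SE 0.09, adjusted p = 0.626). Of all 26725 tested transcripts 38.8% were called for genotype. The Foxo3-202 call was kept in all 24 omissions of 1 library and lost under median-of-ratios scaling (0.19, adjusted p = 0.0836). Both Sesn1 transcripts, which start at different sites, were higher in KO. Sesn1-201 differed by 0.42 (adjusted p = 0.00166) and Sesn1-202, whose start lies nearest to the promoter with the FoxO element, by 0.29 (adjusted p = 0.0318). The Sesn1-202 call was lost without WT ZT4 B, ZT12 A or ZT20 A or KO ZT4 B, ZT12 A or ZT20 B (adjusted p 0.0507 to 0.0607) and under median-of-ratios scaling (0.14, adjusted p = 0.331). Of Txnip 5 transcripts were tested. The coding Txnip-202 held 39.0% of the TPM in WT and 37.8% in KO, and the coding Txnip-201 31.2% in both. The rest lay in forms annotated as retained introns (Txnip-205 with 9.58% in WT and 8.37% in KO, Txnip-203 with 12.4% and 13.4%) and in the processed Txnip-204 (7.82% and 9.28%), which had 79.6 TPM in KO library A of ZT8 and 24.2 TPM in library B. In WT none of the 5 was called for night against day, against 2% of all transcripts. The difference was -1.07 for Txnip-202 (adjusted p = 0.0877) and -0.82 for Txnip-201 (adjusted p = 0.111), and both were called with each genotype fitted alone (adjusted p 0.0138 and 0.0305). Over all times Txnip-201 (0.47, adjusted p = 0.0308) and Txnip-203 (0.59, adjusted p = 0.0483) were called as higher in KO and Txnip-202 was not (0.43, adjusted p = 0.092). Both calls were lost under median-of-ratios scaling (adjusted p 0.172 and 0.174), and without WT ZT12 B, WT ZT16 A or B, or KO ZT12 A or B. Pik3r1-202 held 70.3% of its gene in WT and 73.0% in KO, Pik3r1-204 held 24.2% and 20.8%, and neither was called.

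Other genes of the pathway were taken as 2 lists. The insulin signalling list (receptors, adaptors, kinases, phosphatases and mTOR complex members) had 36 of its 38 genes tested. Of these 19 were called for genotype (16 higher and 3 lower in KO, or 52.8% against 60.9% of all genes), with a median difference of 0.09 against 0.15. The FoxO target and partner list had 32 of its 35 genes tested, of which 20 were called (14 higher and 6 lower in KO, or 62.5%), with a median of 0.16. Neither share stands far from that of all genes.

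In WT, 2 of the 36 insulin signalling genes were called for night against day, Igf1r and Igf2r, both higher by day (5.56% against 5.63% of all genes). These and the list genes named next were chosen after their values were seen. Igf1r, the receptor of insulin-like growth factor 1, had 11.9 and 14.0 TPM at ZT4 and 13.0 and 14.3 TPM at ZT8, against 8.07 and 9.47 TPM at ZT16 and 10.2 and 7.92 TPM at ZT20. Night minus day was -0.58 (SE 0.14, limma adjusted p = 0.0306), a call lost without any one of WT ZT4 A, ZT4 B, ZT8 A, ZT8 B, ZT16 A or ZT20 B (adjusted p 0.0544 to 0.133). For Igf2r, which clears insulin-like growth factor 2, it was -0.35 (SE 0.07, adjusted p = 0.0127), lost without WT ZT4 B, ZT8 B, ZT16 A or ZT20 A (adjusted p 0.0515 to 0.071).

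Of the 32 FoxO list genes 4 were called for night against day in WT (12.5% against 5.63% of all genes). Ulk1, which starts autophagy, was higher by day (-0.38, SE 0.08, limma adjusted p = 0.0114). Gabarapl1, an autophagosome protein, was at 355 to 400 TPM by day and 240 to 268 TPM at night (-0.55, SE 0.12, adjusted p = 0.0209). Arrdc4, a relative of Txnip, was at 4.02 to 4.79 TPM by day and 2.18 to 3.29 TPM at night (-0.57, SE 0.12, adjusted p = 0.0159). Sod2, the mitochondrial superoxide dismutase, was higher at night (0.18, SE 0.05, adjusted p = 0.045), a call lost without any of the 12 WT libraries or the KO libraries of ZT0 and ZT8 (adjusted p up to 0.188). Without WT ZT16 A the Ulk1 call was lost (adjusted p = 0.064). The Gabarapl1 call was lost in 6 omissions (WT ZT4 B, ZT8 A, ZT8 B, ZT16 A, ZT20 A and ZT20 B, adjusted p 0.0614 to 0.0906) and the Arrdc4 call in 5 (WT ZT4 B, ZT8 A, ZT8 B, ZT16 B and ZT20 B, adjusted p 0.0506 to 0.0766). In KO no gene of either list was called for night against day, nor was any for the difference between genotypes.

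For rhythm, the insulin signalling list had 6 of 36 genes called in WT (16.7%, against 13.7% of all genes) and 3 in KO (8.33%, against 3.64%), Grb14, Mtor and Mapkap1. The FoxO list had 8 of 32 called in WT (25%) and 4 in KO (12.5%), Angptl4, Mlx, Pdk4 and Gabarapl1. One gene of each list was called for a difference in rhythm (2.78% and 3.12%, against 0.629% of all genes). Mtor, the kinase of both mTOR complexes, had its fitted peak at 9.94 h in WT and 3.30 h in KO (limma adjusted p = 0.0298), a call lost in 7 of the 24 omissions of 1 library (WT ZT0 B, ZT4 A, ZT4 B, ZT12 A, ZT12 B and ZT16 A and KO ZT12 A, adjusted p 0.0532 to 0.0742). Its level was 30.1 to 59.5 TPM in WT and 18.2 to 38.5 TPM in KO. Pdk4, which inhibits pyruvate dehydrogenase in fasting, had 6.75 and 6.01 TPM at ZT8 in WT against 33.9 and 28.8 TPM in KO. Its fitted range was 2.48 larger in KO (SE 0.72, adjusted p = 0.041), a call lost in 15 omissions, among them all 8 WT libraries of ZT4, ZT8, ZT12 and ZT16 (adjusted p up to 0.0901).

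**Figure D4:**
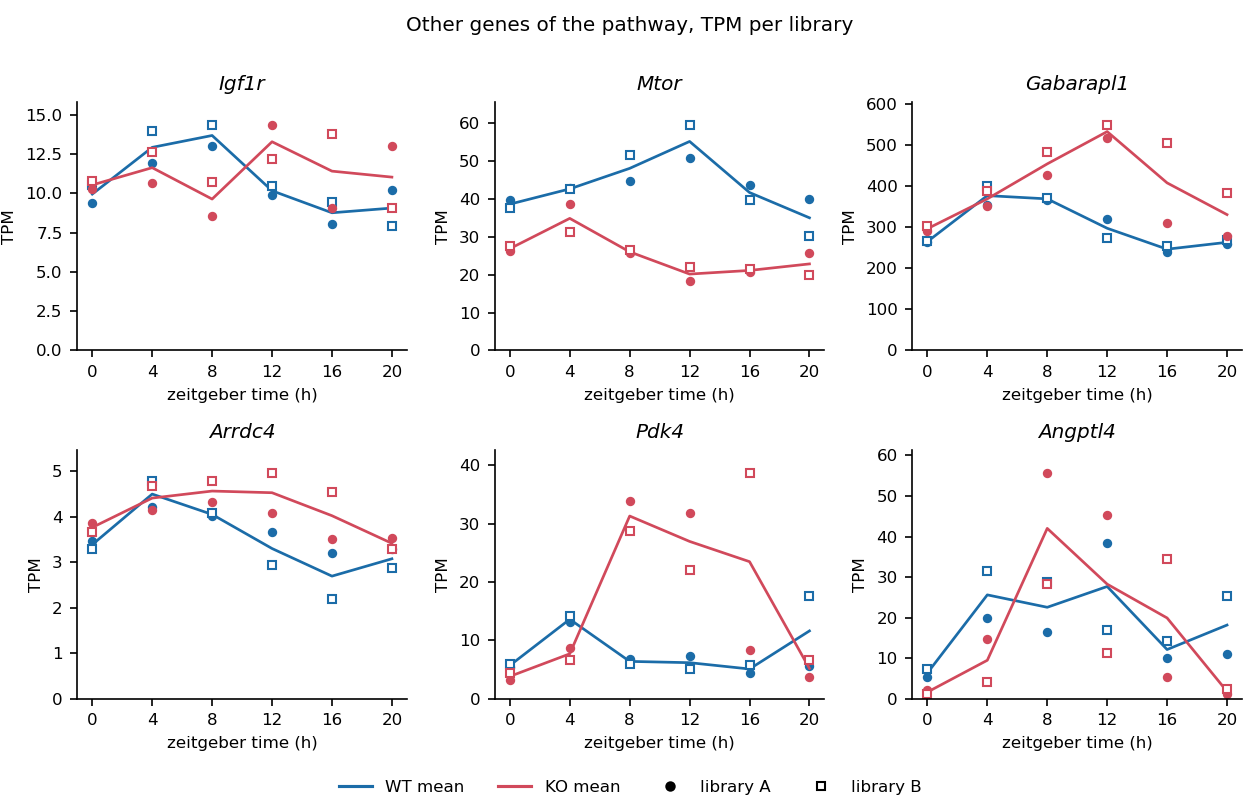
TPM (vertical axis, from 0) of 6 further genes of the pathway against zeitgeber time in hours, with filled circles for libraries A, open squares for libraries B and lines for the means, WT in blue and KO in red. Pdk4 and Angptl4 have their highest KO means at ZT8 (31.3 and 42.0 TPM), and the 2 KO libraries of ZT16 are apart in both (8.27 and 38.7 TPM, 5.38 and 34.4 TPM).

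For 5 of the 6 members called in any test, the genes with the most similar pattern were found by Pearson correlation of log2(TPM + 0.1) over the 24 libraries. These values describe the libraries, which share time and genotype, and carry no test. Insr was closest to Deptor (0.98), an inhibitor of mTOR, and to Zfp704 (0.92). Txnip was closest to Gabarapl1 and Klf11 (0.91 and 0.90). Igfbp1 was closest to Erbb3 (0.95), a receptor of the epidermal growth factor receptor family, and to Mindy1 (0.90). Irs1 was closest to Stxbp6 (0.95) and Maoa (0.94), and Sesn1 to Gsto1 (0.94) and Selenow (0.93).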

How the data were processed

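Polyadenylated RNA of 24 mouse kidney libraries was analysed, grouped by genotype and time from the labels. The authors deposited TPM per transcript, made with kallisto 0.42.4 on mm10/GRCm38 per the submitters' processing notes. Each TPM column sums to the same total, which removes depth. Transcripts were summed to genes by Ensembl identifier through GENCODE M21 (86119 of 88198 matched, and the rest held 1.35% to 2.24% of TPM). The 12874 genes whose mean over libraries reached 1 TPM were tested as log2(TPM + 0.1) with limma 3.58.1 under R 4.3.3 (lmFit, then eBayes with its trend and robust settings). P-values were adjusted by Benjamini-Hochberg over all genes tested, with a threshold of 0.05. A pseudocount understates changes of low genes. Fits used all 24 libraries. The genotype test had time as a 6-level factor, rhythm was a 24-hour cosine and sine per genotype, and night minus day and single-time differences came from the 12 group means. Contrasts were tested two-sided and rhythms by F tests, and the scripts were checked on simulated data. No 2 libraries had identical values.

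The members, both further lists and the rules were chosen with earlier results of these data known. All members were named. A list gene was to be named if called for night minus day in both genotypes or for its difference (none was), and those named otherwise were picked with their values in view. The chromatin contact libraries of the series were not used here. Alternatives changed the scaling, pseudocount, filter, model and libraries. The genes most like Klf15 are not reported here.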

Additional observations from a re-analysis of the deposited data

How the results depend on the processing

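Over the 7 tests, the 10 genes gave 70 results and 2399 re-computations, of which 2344 stayed on their side of the threshold, 37 lost their call and 17 gained one. In the remaining 1 the genotype difference of Foxo1, not called before, was called in the other direction (-0.115) under median-of-ratios scaling. Signs differed in 93 re-computations of 25 results, and 0 of these results were called in the fits given above. Of the counts of genes called, that for genotype went from 5 to 3 without a time term, that for rhythm in WT from 3 to between 2 and 4, and that for rhythm in KO from 1 to 2 under median-of-ratios scaling and to 0 with each genotype fitted alone or time as a 6-level factor. The count for night minus day in WT went from 2 to 1 without a filter on low values, and from 2 to 1 with the replicate block, whether shared or within genotype, the lost gene being Txnip (adjusted p = 0.0699, 0.054 and 0.0597). It went to 3 with each genotype fitted alone (Insr) and with ZT0 added to the night and ZT12 to the day, where Klf15 was called (-0.34, adjusted p = 0.0284). Leaving out 1 library gave counts of 4 to 6 for genotype, 2 to 4 for rhythm in WT, 1 to 2 for rhythm in KO, 0 to 1 for the difference in rhythm, 1 to 2 for night minus day in WT and 0 to 1 for night minus day in KO, and 0 for the difference in night minus day. The letters A and B were not taken as pairs, since of 66 pairs of groups 21 had deviations correlated above 0.1 (-0.323 to 0.338, median 0.0223), and the labels give no shared batch. That reason does not hold within WT, where 14 of 15 pairs were above 0.1 (0.0342 to 0.338, median 0.201). There library A lay above library B at all 6 times on the first and second principal components. Fits without the replicate block left this WT difference between letters in the spread. Within KO 2 of 15 were (-0.204 to 0.224, median 0.0212). Causes were not tested. With a group reduced to 1 library, that library was assumed to vary like the others. TPM holds no depth, so low genes such as Irs1 carry an unknown counting error.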

Other observations

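Several genes of the 2 further lists differed between genotypes by more than 0.5 on the log2 scale, and they were chosen after their values were seen. Cdkn1a, which encodes the cell cycle inhibitor p21, was at 1.69 to 5.13 TPM in WT and 3.53 to 26.7 TPM in KO, or 6.68 TPM at the lowest without the library labelled KO ZT4 A (log2 difference 1.86, limma adjusted p = 1.94e-05). Cited2, a transcriptional co-regulator, was at 20.8 to 38.9 TPM in WT and 32.2 to 60.5 TPM in KO, or from 44.5 TPM without that library (0.86, adjusted p = 2.73e-06). Igfbp7 was at 773 to 941 TPM in WT and 954 to 1522 TPM in KO, from 1307 TPM without it (0.66, adjusted p = 2.3e-07), and Igfbp2 at 1.86 to 4.59 and 2.74 to 12.1 TPM (0.85, adjusted p = 0.000659). Grb14, an inhibitor of the insulin receptor, was at 10.4 to 14.6 TPM in WT and 11.4 to 23.1 TPM in KO, from 15.6 TPM without the same library (0.60, adjusted p = 9.9e-07). The receptor gene Insrr was at 3.59 to 6.41 and 5.97 to 9.90 TPM, from 7.02 TPM in KO without it (0.56, adjusted p = 3.38e-05). Pck1, which encodes a key enzyme of glucose production, was at 180.5 to 1091 and 345 to 1174 TPM (0.64, adjusted p = 0.0121). Mtor was lower in KO (-0.79, adjusted p = 2.97e-06), where its highest level was 38.5 TPM, or 31.1 TPM without that library. These 8 calls were kept in all 24 omissions of 1 library, and under median-of-ratios scaling all but that of Pck1 (0.48, adjusted p = 0.0673).

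The 2 libraries of KO at ZT16 were apart in several of these genes, with library B higher in each. Library A and library B had 110 and 336 TPM of Txnip, 8.27 and 38.7 TPM of Pdk4, 5.38 and 34.4 TPM of Angptl4, and 312 and 506 TPM of Gabarapl1.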
